A study of Homo sapiens with 10 samples.

Results

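The integrated stress response gene ATF4, 5 genes commonly placed downstream of it (DDIT3, TRIB3, CHAC1, ASNS and SLC7A11) and 4 genes of serine synthesis and use (PHGDH, PSAT1, PSPH and SHMT2) were compared between EA.hy926 and HMEC-1, both human endothelial lines. These 10 genes were taken by symbol, out of 60448 genes with a row in the count table and 16310 genes with enough reads to be tested, and all 10 were among the genes tested. The RNA-seq data comprised 5 libraries of each cell line, described by the study as independent biological replicates. EA.hy926 came from fusing umbilical vein endothelium to A549, a lung adenocarcinoma line, and was grown in Advanced DMEM with fetal bovine serum. HMEC-1 derives from human dermal microvascular endothelial cells carrying the SV40 large T antigen. It was grown in MCDB 131 with a higher percentage of fetal bovine serum than EA.hy926, and with epidermal growth factor and hydrocortisone. Cells of both lines were labelled WT, were untreated, were grown to confluence with added L-glutamine and were trypsinized before RNA extraction, and poly(A) RNA was sequenced. Each line stands for itself and not for a vessel type, and because each line had its own medium, effects of the line and of the medium cannot be told apart.

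ATF4 is a bZIP transcription factor whose protein is made from its mRNA more efficiently when stress kinases phosphorylate eIF2α, so that its mRNA level does not report its activity. Its targets include enzymes and carriers that supply amino acids, along with the stress regulators DDIT3 (CHOP) and TRIB3. Serine is made from a glycolytic intermediate by PHGDH, PSAT1 and PSPH in succession, and SHMT2 then passes a serine carbon to folate inside mitochondria, while endothelial cells are known to depend on serine and asparagine supply for growth.

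The 5 EA.hy926 libraries held 34846046 to 39899324 counts and the 5 HMEC-1 libraries 33391640 to 43877224, which places 3 counts at 0.0651 to 0.0904 CPM (counts scaled to library size). The summed level of 12 endothelial marker genes ranged over EA.hy926 libraries from 5243 to 5950 CPM and over HMEC-1 libraries from 1794 to 1845 CPM, and PECAM1, CDH5 and VWF were higher in EA.hy926 with log2 fold changes (log2FC) of 2.68, 1.52 and 1.36. Of the 12 markers 7 were higher and 2 lower past both thresholds used below, the lower ones being EMCN (EA.hy926 0 to 2 counts, HMEC-1 678 to 844 counts) and CLDN5 (0 to 5 and 51 to 65), while KDR had a log2FC of −0.042. The log2FC of TEK and TIE1 was 0.40 and 0.41. Apart from PECAM1, CDH5, VWF, EPCAM, CDH1 and PTPRC, the markers named in this paragraph were picked after their values were seen. Summed epithelial markers, a list of 10 genes, lay at 1275 to 1389 CPM (EA.hy926) and 425 to 487 CPM (HMEC-1), and most of that sum came from KRT7 (622 and 313.5 CPM), KRT8 (546 and 19.2 CPM) and KRT18 (161 and 108 CPM). KRT8 and EPCAM (25 to 40 and 4 to 22 counts) were higher in EA.hy926, KRT19 and CLDN4 were lower (log2FC −4.71 and −1.42), and CDH1 had 0 to 1 counts in any library. Fibroblast and mural markers (8 genes) summed to 6.74 to 8.61 CPM and 474 to 504 CPM, with 4 lower, led by COL1A1 and COL1A2, and ACTA2 higher in EA.hy926 (log2FC 2.68), and leukocyte markers (5 genes) to 0.104 to 0.370 CPM and 0.651 to 1.15 CPM, with PTPRC at 0 to 6 counts. The part of these differences in the results on the 10 genes was not tested.

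The 10 genes did not move as a block between the lines. With a log2FC above 0 standing for a higher level in EA.hy926, SLC7A11 and TRIB3 were higher and CHAC1, ASNS and PSAT1 were lower when a log2FC beyond ±1 and an adjusted p under 0.05 were both required, so that 5 of 10 genes (50%) passed both thresholds. Among all 16310 genes tested, 35.5% passed both (19.1% higher and 16.4% lower). Unless another test or setting is named, adjusted p-values are from edgeR's quasi-likelihood test with Benjamini-Hochberg adjustment over all 16310 genes. On adjusted p alone 9 of the 10 genes differed, 3 higher and 6 lower, where 85.8% of all genes tested did so (42.6% higher and 43.3% lower). CPM ranges of the 2 lines were separate for 7 of the 10 genes, against 77.4% of all genes tested. The median log2FC was −0.24 over the 10 genes and −0.01 over all genes tested.

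**Figure D1:**
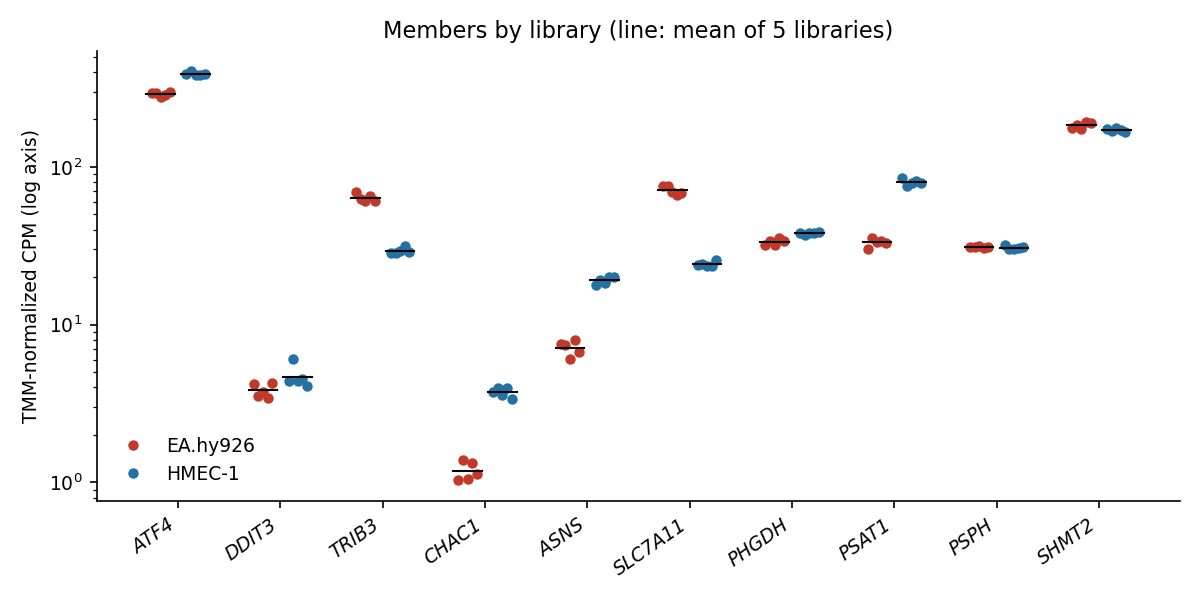
TMM-normalized CPM on a log axis for the 10 genes in each of the 5 EA.hy926 (red) and 5 HMEC-1 (blue) libraries, with the mean as a black line. TRIB3 and SLC7A11 lie higher in every EA.hy926 library, ATF4, CHAC1, ASNS, PHGDH and PSAT1 lie lower, and DDIT3, PSPH and SHMT2 overlap.

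The sequence upstream of the start site is shown, as a description, for 4 of the 5 genes past both thresholds. RefSeq promoter windows (GRCh38.p14) were matched by symbol for 7 of the 10 genes, with 12 windows in all, and not for SLC7A11, PSPH and SHMT2. The 250 bases before each start are printed 5′ to 3′ on the gene's strand, and capitals mark a match to the C/EBP-ATF response element, spelled TGATGNAA and searched on both strands.
ASNS (chr7:97872409-97872658, minus strand, first of its start sites): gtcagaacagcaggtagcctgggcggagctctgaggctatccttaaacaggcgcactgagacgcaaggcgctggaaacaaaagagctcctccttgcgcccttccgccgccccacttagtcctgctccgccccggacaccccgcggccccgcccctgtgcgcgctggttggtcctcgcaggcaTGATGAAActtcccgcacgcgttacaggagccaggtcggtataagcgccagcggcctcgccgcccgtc
CHAC1 (chr15:40953221-40953470, plus strand): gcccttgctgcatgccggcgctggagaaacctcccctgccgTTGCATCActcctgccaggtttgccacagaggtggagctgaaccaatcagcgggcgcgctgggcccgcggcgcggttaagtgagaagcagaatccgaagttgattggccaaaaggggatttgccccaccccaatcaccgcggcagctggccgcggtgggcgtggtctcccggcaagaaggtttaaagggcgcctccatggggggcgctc
PSAT1 (chr9:78296875-78297124, plus strand): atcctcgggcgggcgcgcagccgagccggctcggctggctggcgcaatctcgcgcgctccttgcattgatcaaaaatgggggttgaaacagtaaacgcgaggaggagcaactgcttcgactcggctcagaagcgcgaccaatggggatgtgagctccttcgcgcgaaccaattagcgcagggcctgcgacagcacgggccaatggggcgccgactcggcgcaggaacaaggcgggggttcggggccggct
TRIB3 (chr20:381045-381294, plus strand, first of its start sites): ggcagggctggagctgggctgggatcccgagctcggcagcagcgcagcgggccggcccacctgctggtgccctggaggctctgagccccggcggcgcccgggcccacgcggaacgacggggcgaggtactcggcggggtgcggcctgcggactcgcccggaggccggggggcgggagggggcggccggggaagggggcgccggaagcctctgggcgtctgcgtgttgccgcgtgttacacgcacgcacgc
In the ASNS window the match TGATGAAA lies 68 to 61 bases before the start, and in the CHAC1 window the element lies on the opposite strand, 209 to 202 bases before the start, reading TTGCATCA on the strand printed. These were the 2 matches among the 12 windows, and 3.14% of 35116 RefSeq windows of this length held one. The windows of ATF4, DDIT3 and TRIB3 largely overlap within each gene, so the 12 are not separate promoters. ASNS and CHAC1 were both lower in EA.hy926, while no match stood in these windows of PSAT1, also lower, or TRIB3, which was higher. The antioxidant response element (TGACNNNGC) was in 0 of the 12 windows and in 10.9% of all windows, and the endoplasmic reticulum stress element (ERSE) in 0 of 12 and in 0.074%. A match describes letters in a window and not a bound site. The windows are reference sequence and were not read from either line, and any link to the differences between the lines was not tested.

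ATF4 itself (ENSG00000128272, GRCh38 chr22:39519695-39522683) was the most highly counted of the 10 genes and was lower in EA.hy926. Its level was 292, 294, 279, 284 and 299 CPM in EA.hy926 replicates 1 to 5 and 385, 404, 382, 383 and 389 CPM in HMEC-1 replicates 1 to 5. The lowest HMEC-1 library thus stood well above the highest EA.hy926 library. Means were 289.7 ± 8.31 CPM and 389 ± 8.93 CPM (SD, n = 5 each), and the log2FC was −0.42 with a standard error (SE) of 0.026 and an adjusted p of 1.4e-12. The difference therefore exceeded the replicate spread but not the fold threshold. In bulk RNA, fewer cells with a transcript and less of it per cell cannot be told apart, here and for the genes that follow.

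DDIT3 (ENSG00000175197, chr12:57516588-57521737) encodes CHOP, a bZIP factor of prolonged stress that dimerizes with C/EBP proteins. Levels were low in both lines, with 4.196, 3.525, 3.76, 3.41 and 4.26 CPM in EA.hy926 and 4.42, 6.03, 4.38, 4.49 and 4.06 CPM in HMEC-1. HMEC-1 replicate 2 stood apart at the top, and the remaining libraries of the lines overlapped. The log2FC was −0.29 (SE 0.11, adjusted p = 0.019), and it no longer passed without HMEC-1 replicate 2 (−0.19, adjusted p = 0.0692) or without EA.hy926 replicate 4 (−0.24, adjusted p = 0.0562). Of its exonic bases, 31.6% are covered by exons of the neighbours MARS1 and MBD6, both more highly counted than DDIT3, and how reads there were assigned was not tested.

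TRIB3 (ENSG00000101255, chr20:362835-397559), a pseudokinase induced by CHOP and ATF4 that also restrains them, was higher in EA.hy926. Its values were 69.2, 62.6, 60.9, 65.7 and 60.5 CPM in EA.hy926 and 28.4, 28.4, 29.3, 31.3 and 28.8 CPM in HMEC-1. Every EA.hy926 library was far above every HMEC-1 library, and spread within each line was small. TRIB3 was 2.18-fold higher (63.8 ± 3.66 against 29.2 ± 1.20 CPM, SD, n = 5 each; log2FC 1.12, SE 0.040, adjusted p = 1.3e-16). When libraries were scaled by their totals alone, the log2FC was 0.99, just below the fold threshold.

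CHAC1 (ENSG00000128965, chr15:40952962-40956512), an enzyme that degrades glutathione and a late target of the pathway, showed the largest fold change of the 10 genes. It had 1.03, 1.39, 1.05, 1.33 and 1.13 CPM in EA.hy926, from 37 to 51 counts a library, and 3.76, 3.97, 3.58, 3.98 and 3.40 CPM in HMEC-1, from 130 to 165 counts. The lines were clearly separated although CHAC1 had the fewest counts of the 10 genes in each library. CHAC1 was 3.15-fold lower in EA.hy926 (log2FC −1.66, SE 0.12, adjusted p = 2.8e-11).

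ASNS (ENSG00000070669, chr7:97851677-97872542), which makes asparagine from aspartate and glutamine, was 2.67-fold lower in EA.hy926. Levels were 7.499, 7.38, 6.04, 7.99 and 6.74 CPM in EA.hy926 and 17.8, 19.1, 18.4, 19.9 and 20.15 CPM in HMEC-1. No EA.hy926 library approached the HMEC-1 range. Means were 7.13 ± 0.756 and 19.1 ± 1.01 CPM (SD, n = 5 each), with a log2FC of −1.42 (SE 0.066, adjusted p = 1.2e-14).

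SLC7A11 (ENSG00000151012, chr4:138164097-138242349) is the cystine-glutamate exchanger subunit of system xc- and is a target of both ATF4 and NRF2. It moved opposite to CHAC1, ASNS and PSAT1, with 75.4, 76.0, 69.0, 66.15 and 68.1 CPM in EA.hy926 and 23.8, 24.3, 23.6, 23.5 and 25.6 CPM in HMEC-1. Libraries of the 2 lines formed separate groups. SLC7A11 was 2.94-fold higher in EA.hy926 (70.9 ± 4.49 against 24.1 ± 0.872 CPM, SD, n = 5 each; log2FC 1.55, SE 0.042, adjusted p = 8.1e-19). Its antisense neighbour SLC7A11-AS1 overlaps 8.97% of its exonic bases but held only 3 to 12 counts (EA.hy926) or 1 to 5 counts (HMEC-1).

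**Figure D2:**
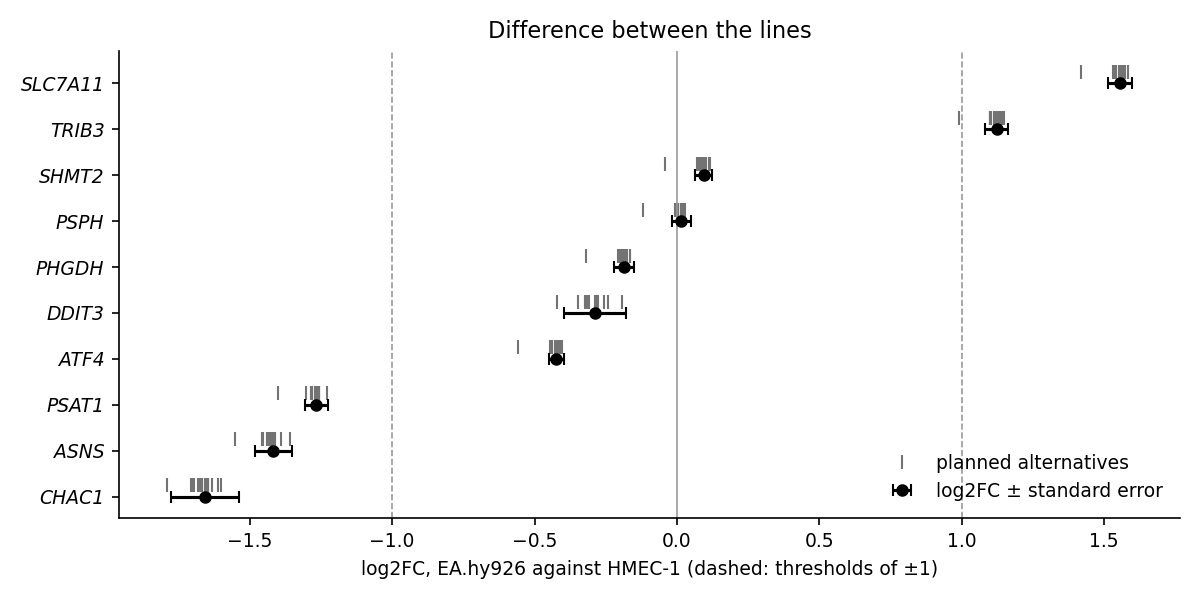
Log2FC of EA.hy926 against HMEC-1 for each gene (black point, with standard error) and its value under each other normalization, filter, test or pairing or with 1 library left out (grey ticks). CHAC1, ASNS and PSAT1 stay below −1 and SLC7A11 above 1 in all of these, the TRIB3 value with library totals falls to 0.99, and SHMT2 and PSPH lie near 0.

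Within serine synthesis the difference was uneven, being largest at the middle enzyme. PHGDH (ENSG00000092621, chr1:119648411-119744218), which oxidizes 3-phosphoglycerate and commits it to serine, had 32.1, 33.7, 32.01, 35.4 and 34.0 CPM in EA.hy926 and 38.0, 37.2, 38.0, 38.3 and 38.7 CPM in HMEC-1. HMEC-1 libraries were tightly grouped and all above EA.hy926, though by little. PHGDH was lower in EA.hy926 by a log2FC of −0.18 (SE 0.035, adjusted p = 6e-05), which is far inside the fold threshold.

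PSAT1 (ENSG00000135069, chr9:78297125-78330093), the aminotransferase that takes its nitrogen from glutamate, had 30.3, 35.2, 33.5, 34.1 and 32.8 CPM in EA.hy926 against 85.0, 75.1, 78.7, 81.4 and 78.7 CPM in HMEC-1. All HMEC-1 libraries exceeded all EA.hy926 libraries by a wide margin. Means of 33.2 ± 1.84 and 79.8 ± 3.70 CPM (SD, n = 5 each) gave a log2FC of −1.27 (SE 0.040, adjusted p = 1.1e-17).

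PSPH (ENSG00000146733, chr7:56011051-56051604), the phosphatase that releases serine, was nearly level, at 31.2, 31.2, 31.5, 30.45 and 31.1 CPM in EA.hy926 and 31.9, 30.4, 30.2, 30.5 and 30.9 CPM in HMEC-1. The ranges overlapped, and the log2FC was 0.015 (SE 0.034, adjusted p = 0.68). A pseudogene of PSPH on the same chromosome, PSPHP1 (ENSG00000226278, chr7:55764797-55773288), which was looked up after its counts were seen, held 0 to 1 counts in EA.hy926 libraries and 537 to 788 counts in HMEC-1 libraries. Reads of near-identical copies may be counted to either gene, so the PSPH value is uncertain to that degree, in a direction that was not tested. In EA.hy926, where PSPH held 1035 to 1170 counts, PSPHP1 held 0 to 1. PSPHP1 has 261 exonic bases and PSPH has 2762, so their counts do not stand for the same length. With PSPHP1 counts added to PSPH, an alternative chosen after seeing the data, the log2FC became −0.58 (adjusted p = 1.69e-13). That alternative allows for PSPH reads counted to PSPHP1, and not for PSPHP1 reads counted to PSPH. The other 12 pseudogene rows of these genes held at most 24 counts in any library.

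SHMT2 (ENSG00000182199, chr12:57229573-57234935), the mitochondrial serine hydroxymethyltransferase, had 176, 183, 174.5, 193 and 190.2 CPM in EA.hy926 and 173, 169.8, 176, 172 and 167 CPM in HMEC-1. EA.hy926 libraries reached higher, but the ranges overlapped. The log2FC of 0.094 (SE 0.029, adjusted p = 0.0059) passed the test by p alone, lost it without HMEC-1 replicate 5 (0.071, adjusted p = 0.0538) and changed sign when libraries were scaled by totals (−0.041, adjusted p = 0.23). Exons of NDUFA4L2, at 14 to 33 counts a library, and of a long noncoding gene at 0 counts cover 8.38% of its exonic bases.

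Levels can be compared between genes only per length, and on the scale of CPM per kb of merged exons the order of the 10 genes differed in places. In EA.hy926 it ran ATF4 (110.9), SHMT2 (39.9), TRIB3 (19.4), PSAT1 (15.03), PSPH (11.3), SLC7A11 (7.35), PHGDH (3.64), DDIT3 (2.93), ASNS (1.46) and CHAC1 (0.578), with no overlap between neighbours. In HMEC-1 it ran ATF4 (148.7), SHMT2 (37.4), PSAT1 (36.2), PSPH (11.1), TRIB3 (8.89), PHGDH (4.14), ASNS (3.89), DDIT3 (3.58), SLC7A11 (2.50) and CHAC1 (1.82). There SHMT2 was not separated from PSAT1, and PHGDH, ASNS and DDIT3 were not separated from each other. SLC7A11 thus stood sixth in EA.hy926 and ninth in HMEC-1. Per kb of the longest transcript PHGDH, at 10.5 CPM per kb, stood above SLC7A11 in EA.hy926, while in HMEC-1, at 11.95 CPM per kb, it kept its place but overlapped TRIB3. There CHAC1 (2.46) also overlapped SLC7A11 (2.50). By that length PSAT1 overlapped PSPH, and DDIT3 overlapped ASNS, in EA.hy926.

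**Figure D3:**
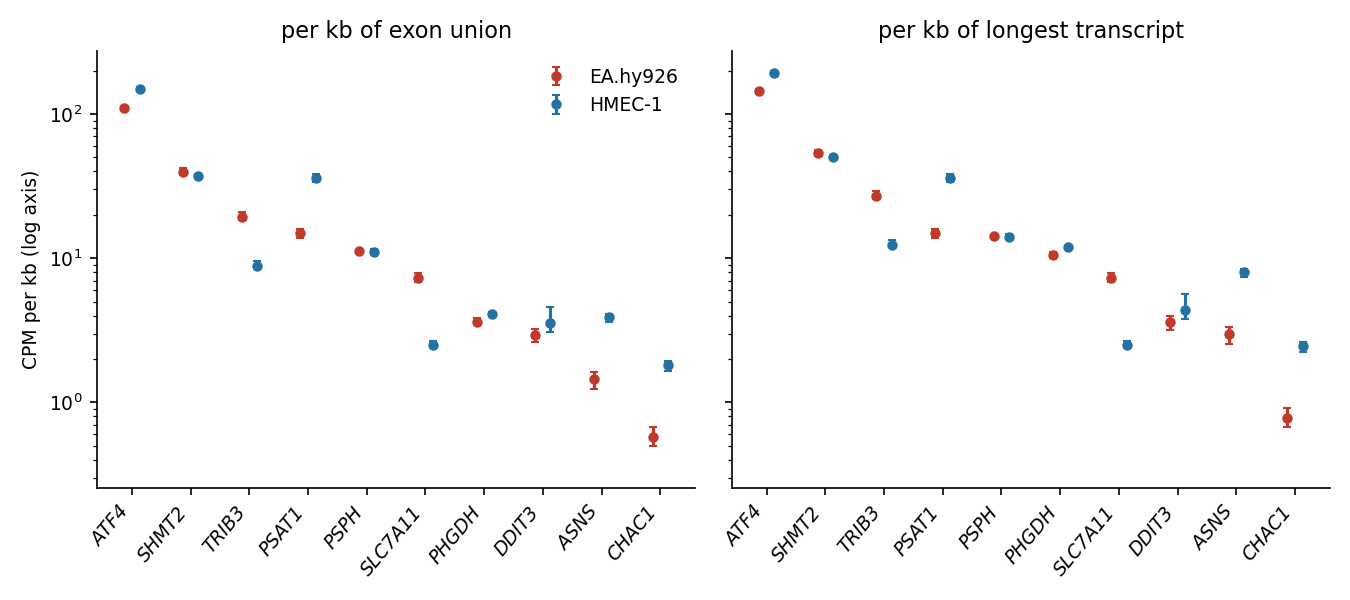
Mean CPM per kb on a log axis with the range over 5 libraries, by merged exon length (left) and longest transcript length (right), for EA.hy926 (red) and HMEC-1 (blue). ATF4 has the highest and CHAC1 the lowest mean under both lengths, although CHAC1 and SLC7A11 overlap in HMEC-1 per kb of the longest transcript, and PSAT1, TRIB3, SLC7A11 and ASNS show the widest gaps between the lines besides CHAC1.

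Ratios of counts within a library cancel the scaling factor, so 6 of them were compared between the lines with a two-sided exact permutation test, whose smallest possible p with 5 against 5 libraries is 0.00794. PHGDH and PSAT1 were counted about equally in EA.hy926 (log2 ratio 0.013 ± 0.071), while in HMEC-1 PSAT1 exceeded PHGDH (−1.07 ± 0.060), a difference of 1.08 (SD, n = 5 each). PSAT1 had 1.07 counts per PSPH count in EA.hy926 and 2.59 in HMEC-1, a log2 difference of −1.28. The ratio of PHGDH to PSPH differed by only −0.20, but the lines did not overlap. Exact p was 0.00794 for each of these 3 ratios, adjusted over the 6 ratios to 0.00952. Both ratios to PSPH rest on the uncertain PSPH count. With PSPHP1 counts added to PSPH, the PHGDH to PSPH difference reversed to 0.39 and the PSAT1 to PSPH difference became −0.69, with 1.71 PSAT1 counts per count in HMEC-1 (exact p = 0.00794 for each).

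The mitochondrial and cytosolic forms of serine hydroxymethyltransferase shifted relative to each other. SHMT1 was lower in EA.hy926 (23.7 ± 1.43 against 49.0 ± 0.691 CPM, SD, n = 5 each; log2FC −1.05), and SHMT2 had 7.73 counts per SHMT1 count in EA.hy926 and 3.503 in HMEC-1 (log2 difference 1.14, exact p = 0.00794, adjusted p = 0.00952). SLC3A2, the heavy chain partner of SLC7A11, was near equal (113 ± 6.55 against 114 ± 2.77 CPM, log2FC −0.014, adjusted p = 0.70). SLC7A11 accordingly had 0.629 counts per SLC3A2 count in EA.hy926 and 0.212 in HMEC-1 (log2 difference 1.57, exact p = 0.00794, adjusted p = 0.00952). The ratio of DDIT3 to ATF4 was −6.25 ± 0.13 against −6.39 ± 0.19 on the log2 scale, and the difference of 0.14 did not pass (exact p = 0.214). That outcome rests on HMEC-1 replicate 2, without which the difference was 0.23 (exact permutation test, adjusted p = 0.0159) and the lines did not overlap.

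**Figure D4:**
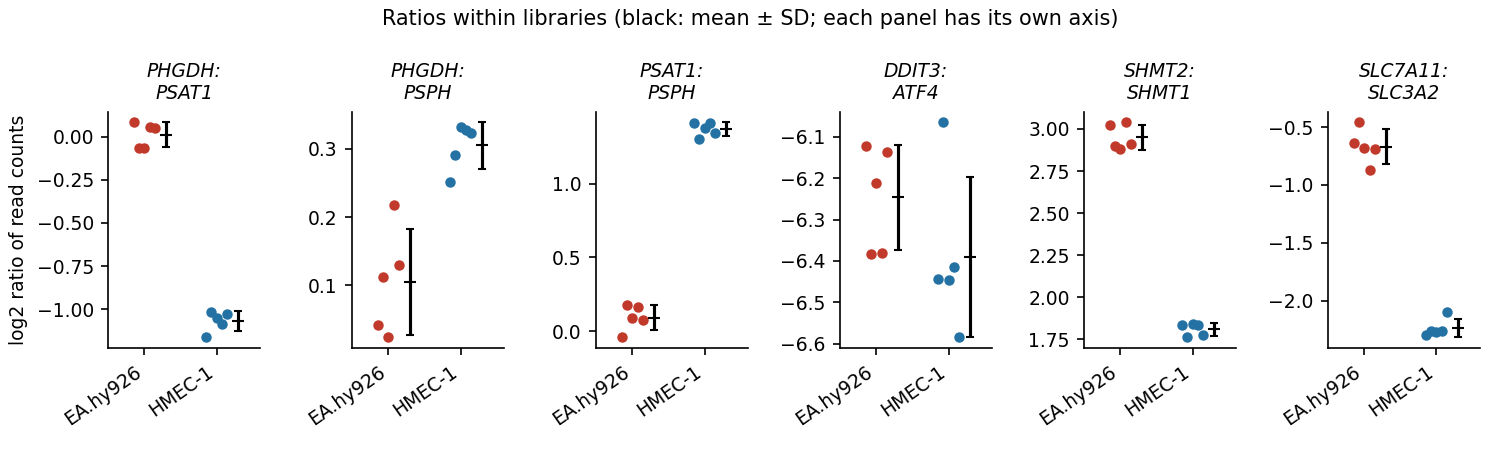
Log2 ratio of read counts between pairs of genes in each library of EA.hy926 (red) and HMEC-1 (blue), with mean ± SD in black and a separate axis for each panel. The lines are separate in 5 of the 6 ratios and overlap for DDIT3:ATF4, there through HMEC-1 replicate 2 alone.

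Spread between libraries of a line bears on how firmly these values stand. Over the 10 genes and both lines the SD of log2 CPM was smallest for PSPH in EA.hy926 (0.018) and largest for DDIT3 in HMEC-1 (0.218), against medians over all genes tested of 0.0871 in EA.hy926 and 0.0762 in HMEC-1. CHAC1 (0.187), ASNS (0.156) and DDIT3 (0.143) varied most in EA.hy926. They also had the fewest counts of the 10 genes there (37 to 51, 212 to 307 and 117 to 158). The part of counting noise in their spread was not tested. No library was the highest of its line for more than 3 of the 10 genes. EA.hy926 replicate 3 was the lowest for 4 of them (ATF4, ASNS, PHGDH and SHMT2), and HMEC-1 replicate 2 was the highest for ATF4 and DDIT3.

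Genes around the pathway were described by 10 lists (179 genes besides the 10, of which 167 were tested), counted at both thresholds beside the 35.5% of all genes tested. Of the stress kinases and eIF2 machinery, 2 of 16 passed, both lower in EA.hy926. These were EIF2AK3, the kinase PERK of the endoplasmic reticulum (9.69 against 24.6 CPM, log2FC −1.34), and EIF2B3, a subunit of the eIF2 exchange factor (18.8 against 41.5 CPM, −1.15). The amino acid sensor kinase EIF2AK4 (GCN2) had a log2FC of 0.024 (adjusted p = 0.35). EIF2AK4 was picked after its value was seen.

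Among bZIP partners of ATF4, 4 of 10 tested genes passed, 1 higher and 3 lower, and the median log2FC was −0.44. BATF3 was higher (1.77 against 0.213 CPM, log2FC 3.06), while CEBPD was lower (3.75 against 15.6 CPM, −2.05), as was FOS, and JDP2 had 0 to 6 counts in EA.hy926 against 896 to 1150 in HMEC-1.

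Other ATF4 target genes were divided, with 7 higher and 7 lower of 21 tested (median log2FC 0.058). NIBAN1, a stress-induced regulator of translation, was higher (44.5 against 3.33 CPM, log2FC 3.73), as was the apoptosis effector BBC3 (55.7 against 12.1 CPM, 2.21). LAMP3, a lysosomal membrane protein, was without a count in EA.hy926 and had 956 to 1359 counts per HMEC-1 library, so that with 3 counts a library as the floor EA.hy926 was at least 318-fold lower. The peptide hormone gene ADM2, also at 0 in EA.hy926, was at least 30.4-fold lower on the same floor. The remaining genes past both thresholds were GDF15, TNFRSF10B, STC2, INHBE and SESN2 (higher) and VLDLR, NUPR1, DDIT4, DDR2 and PCK2 (lower). INHBE had few counts (12 to 25 in EA.hy926, 8 to 13 in HMEC-1), and its CPM ranges overlapped between the lines.

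None of 20 cytosolic aminoacyl-tRNA synthetases, which charge tRNAs and include known ATF4 targets, passed both thresholds. By adjusted p alone, 7 were higher and 11 lower, with log2FC between −0.85 and 0.42 and a median of −0.13. By number of genes, amino acid transporters leaned lower in EA.hy926, with 2 higher and 9 lower of 20 tested (median −0.41). The most highly counted of them, SLC38A2, was higher but inside the fold threshold (1120 against 727 CPM, log2FC 0.62, adjusted p = 5.8e-17). SLC38A2 was picked after its value was seen. Higher past both thresholds were SLC7A8 (1.89 against 0.216 CPM, log2FC 3.12) and SLC7A7 (1.53 against 0.235 CPM, 2.67), both light chains that pair with SLC3A2. SLC38A3, at 0 counts in all EA.hy926 libraries, was at least 12.3-fold lower, and SLC6A9, a glycine transporter, had 0 to 2 counts against 20 to 34. The other 7 lower genes were SLC1A4, SLC7A2, SLC7A5, SLC7A1, SLC36A1, SLC43A1 and the mitochondrial serine carrier SFXN1.

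Folate and one-carbon enzymes, which use the carbon of serine, showed 3 higher and 3 lower of 19 (median −0.12). ALDH1L1 was higher (130 to 159 counts against 0 to 4), as was its mitochondrial relative ALDH1L2 (7.28 against 2.69 CPM, log2FC 1.43), while GLDC of the glycine cleavage system was lower (1.502 against 8.16 CPM, −2.44). AHCY was also among the higher and SHMT1 among the lower genes. Of 12 tested enzymes of asparagine, proline and glutamate, PYCR3 was higher (log2FC 1.61) and ASRGL1, which hydrolyses asparagine, and GLUL, glutamine synthetase, were lower (−2.41 and −1.96). The median of that list was 0.13.

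Cysteine and glutathione enzymes had 3 higher and 1 lower of 12 (median 0.022). The peroxidases GPX1 and GPX4 were higher (log2FC 1.64 and 1.03), as was GCLC, and CBS was lower (−1.81, SE 0.36), although its HMEC-1 libraries ranged from 124 to 594 counts. Other genes of the unfolded protein response had 2 higher and 3 lower of 21 (median −0.0013), led by the sensor ERN1 (1.89) and the disulfide isomerase PDIA4 (1.31) on the higher side and ERO1B (−2.32), SDF2L1 (−1.38) and XBP1 on the lower. NRF2 target genes, a list that shares inputs with SLC7A11, had 9 higher and 2 lower of 20 tested, and their median log2FC was 0.63. The aldo-keto reductases AKR1B10 and AKR1C3 led (4.31 and 4.26), and ABCC3 (−4.80) and AKR1C1 (−1.51) were lower, with AKR1C1 ranges that overlapped between the lines. Reads may be split among closely related AKR1 genes, so these values are uncertain. Also higher were OSGIN1, ABCC2, SRXN1, ME1, NQO1, GCLC and FTL.

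**Figure D5:**
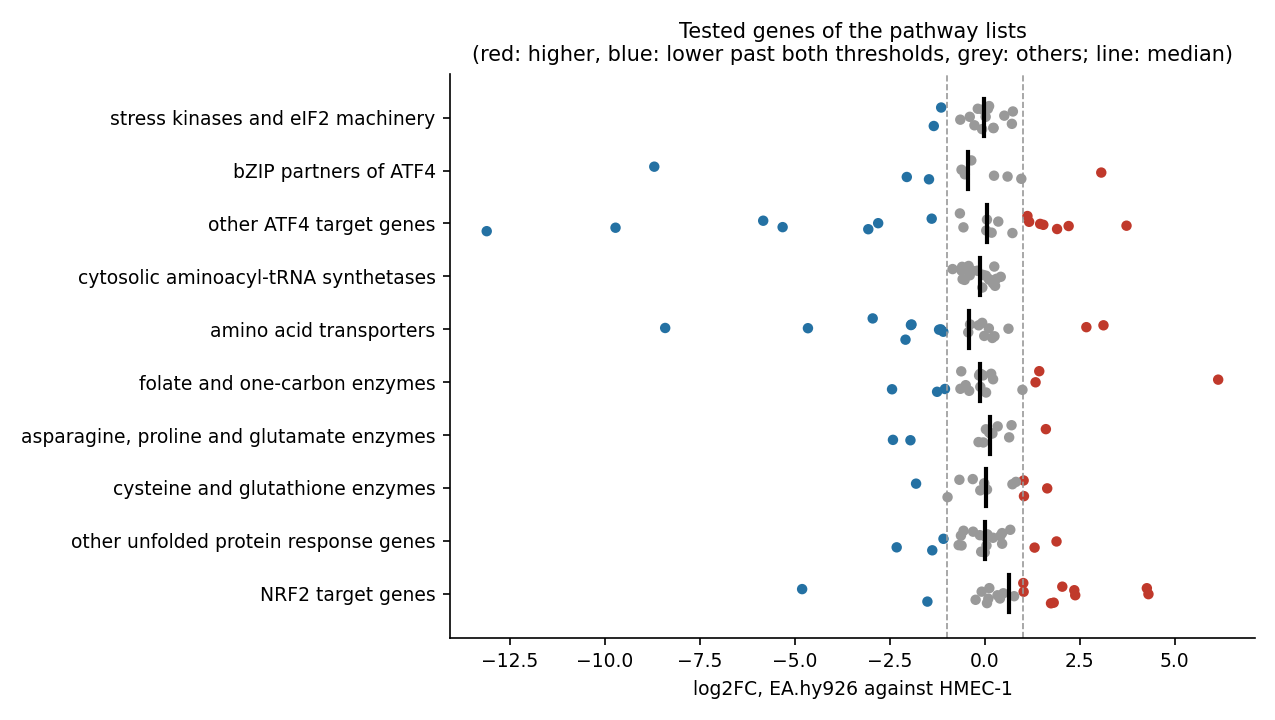
Log2FC of every tested gene of the 10 pathway lists, coloured where it passed both thresholds (red higher, blue lower in EA.hy926), with the list median as a black line; fitted values of genes at or near 0 counts in a line, such as LAMP3, are no measure of size. The synthetase list has 0 coloured points, and the NRF2 list has the highest median, 0.63.

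The 3 genes outside the lists whose pattern over the 10 libraries was most like that of CHAC1 were PSRC1, ACAT2 and TDRKH, at Euclidean distances of 0.273, 0.303 and 0.305 between centred log2 CPM values.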

How the data were processed

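Gene counts from RNA-seq of 2 endothelial lines, EA.hy926 and HMEC-1, were analysed, 5 libraries a line, grouped by the cell line named in the labels. The deposited values are raw read counts per Ensembl gene, made by the authors from reads aligned to GRCh38. The submitters' processing notes name fastp, HISAT2 and featureCounts, while the study's methods name HTSeq. Versions, the annotation release and the strand setting are not given in the sources used here. Of 60448 rows, 56434 matched GENCODE 44, which gave symbols, positions and exon lengths on the same build.

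Genes were kept by filterByExpr (minimum count 10, minimum total 15), which left 16310, scaled by TMM and tested with edgeR 4.0.16 (quasi-likelihood, R 4.3.3) with Benjamini-Hochberg adjustment. CPM values are TMM-normalized. Calls needed an adjusted p under 0.05, with an absolute log2FC over 1 where stated. Within-library ratios were tested by exact permutation (scipy 1.17.1). Alternatives were DESeq2 1.42.0, limma-voom (limma 3.58.1), glmTreat, other scalings, other filters, a replicate block and each library left out. Replicate pairs differed beyond counting noise (chi-square per degree of freedom 3.009 to 7.456). The fitting script was tested on simulated data.

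Same-numbered libraries of the lines did not deviate together (correlations −0.0228 to 0.0389), so the numbers were not taken as pairs. The 10 genes, the pathway and marker lists and the tests were chosen with earlier results of these data known. Named from each list were the 2 highest and 2 lowest log2FC past both thresholds, plus SHMT1, SLC3A2, 6 fixed marker genes and the 3 genes most like the gene with the largest absolute log2FC. Other genes past both thresholds are named to complete a count. One gene that this rule names is not reported here.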

Additional observations from a re-analysis of the deposited data

Results flagged for a closer look

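Among 90 sets of 5 libraries of one line, 3 held a library whose gap to its nearest neighbour was large for the range of the set, where chance gives about 1 in 20. DDIT3 stood at 6.03 CPM in HMEC-1 replicate 2 and at 4.06 to 4.49 CPM in the other HMEC-1 libraries. BATF3 stood at 0.13 CPM in HMEC-1 replicate 3 and at 0.221 to 0.257 CPM in the others, on 6 to 9 counts a library. The log2 ratio of SLC7A11 to SLC3A2 was −2.1 in HMEC-1 replicate 5 and −2.29 to −2.26 in the others, all below every EA.hy926 library.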

How the results depend on the processing

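With DESeq2, limma-voom or RLE factors all 10 genes kept their direction and side of the thresholds, and no count of genes moved by over 1.5 times. Scaling by library totals shifted the median log2FC of all genes by −0.135, and with it the higher members fell to 1 (TRIB3 at 0.99), PSPH turned to −0.12 (adjusted p = 0.00272) and SHMT2 to −0.041. Adding PSPHP1 counts, chosen after seeing the data, turned PSPH to −0.58 and the PHGDH:PSPH ratio to 0.39. A test against a log2FC of 1 (glmTreat) left ATF4 (−0.42), DDIT3 (−0.29), PHGDH (−0.18) and SHMT2 (0.094) without a call (adjusted p = 1), and gave 5021 genes by adjusted p and 2 of the cysteine and glutathione list. All genes past both thresholds numbered 5784, against 3255 with at least 10 counts in every library (1857 higher, 1398 lower) and 9312 without a filter (4975 higher, 4337 lower), and the bZIP, other ATF4 target and transporter lists then had 2, 9 and 7 with the 10-count filter, and the asparagine, proline and glutamate list 5 without a filter. With a library left out, DDIT3 ranged from −0.35 to −0.19, SHMT2 from 0.071 to 0.12 and the DDIT3:ATF4 ratio from 0.096 to 0.23 (0.226 and adjusted p = 0.0159 without HMEC-1 replicate 2), and the members past both thresholds stayed 2 higher and 3 lower. With the replicate block 5786 genes passed both thresholds, 5775 of them shared, and 4 of 10 libraries correlated best with their own number. Paired by number, the ratios were 1.08, −0.20, −1.28, 1.14 and 1.57 at adjusted p = 0.075, where 5 pairs allow no p under 0.0625. Reads per gene limit CHAC1 and DDIT3 most.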
